A study of Mus musculus with 8 samples.

Results

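The lysosomal cathepsins and cystatin C were followed in NIH 3T3 mouse fibroblasts that had been incubated with media from cardiomyocytes. The 10 genes were Ctsa, Ctsb, Ctsc, Ctsd, Ctsh, Ctsk, Ctsl, Ctss, Ctsz and Cst3, chosen with earlier results of these data known. Their probes were found by gene symbol among the 16584 genes to which the array's probe annotation gave a name. All 10 had a probe, 16 probes in all, and 12 of these probes, for 8 of the genes, were above background on at least 2 of the 8 arrays and were tested. NIH 3T3 is an established line of mouse embryonic fibroblasts. The media came from HL-1 cells, a line of mouse atrial cardiomyocytes that is maintained in Claycomb media with serum and norepinephrine. According to the study's methods, all media were changed to ones free of serum and antibiotics before growth factors were added. The part on media transfer does not mention serum. Of 8 arrays, 3 were of fibroblasts kept in fresh, unused Claycomb media (labelled untreated), 3 of fibroblasts that received Claycomb media in which HL-1 cells had been cultured (cardiomyocyte media), and 2 of fibroblasts that received the supernatant left when such media had been spun at low speed and then ultracentrifuged (media supernatant). RNA was taken after about a day. Unused Claycomb media that had been ultracentrifuged were not analysed here, so the spin itself has no control of its own. The study's methods describe RNA taken from separate wells of each cell group, but the sources used here do not say whether the arrays of a group came from separate experiments, so any p-value covers the array-to-array spread alone.

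Cathepsins are proteases that work mostly in the acid of the lysosome, the organelle in which cells break down proteins taken up from outside and worn out parts of their own. They are made as inactive precursors, tagged in the Golgi with mannose 6-phosphate, carried to the lysosome by receptors for that tag and trimmed there to the active enzymes, and a share of them is secreted. Most are cysteine proteases (Ctsb, Ctsc, Ctsh, Ctsk, Ctsl, Ctss and Ctsz), Ctsd is an aspartic protease and Ctsa a serine carboxypeptidase. Cystatin C, encoded by Cst3, is a small secreted protein that binds and blocks cysteine cathepsins outside the cell. In connective tissue, fibroblasts use these enzymes to turn over collagen and other matrix proteins.

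In the GRCm38.p6 assembly, Ctsa, Ctsz and Cst3 lie on chromosome 2, Ctsk and Ctss on chromosome 3, Ctsc and Ctsd on chromosome 7, Ctsh on chromosome 9, Ctsl on chromosome 13 and Ctsb on chromosome 14. Ctsk (chr3:95499210-95509387) and Ctss (chr3:95526786-95556405) are close neighbours. RefSeq promoters were matched for 8 of the 10 genes, 9 promoters in all since Ctsa had 2 start sites. The matched start site of Ctsl and the second of Ctsa are internal, with windows that lie wholly inside the annotated genes. That of Ctsc is internal too, with a window that reaches across the start of the annotated gene. The 250 bases before the start site are given here 5′ to 3′ for Ctsk and Ctsl, whose signals differed between the media, for Ctsd, with the highest GC content of the set, and for Cst3, the inhibitor. Capitals mark an E-box (CACGTG, the letters inside the element that the lysosomal regulators TFEB and TFE3 bind) or a GC box (GGGCGG on either strand).
Ctsk (chr3:95498960-95499209, plus strand): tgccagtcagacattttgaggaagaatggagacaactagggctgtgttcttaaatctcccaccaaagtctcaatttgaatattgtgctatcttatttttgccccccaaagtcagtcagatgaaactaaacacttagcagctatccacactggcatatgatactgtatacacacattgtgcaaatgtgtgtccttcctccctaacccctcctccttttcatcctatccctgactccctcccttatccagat
Ctsl (chr13:64370521-64370770, minus strand): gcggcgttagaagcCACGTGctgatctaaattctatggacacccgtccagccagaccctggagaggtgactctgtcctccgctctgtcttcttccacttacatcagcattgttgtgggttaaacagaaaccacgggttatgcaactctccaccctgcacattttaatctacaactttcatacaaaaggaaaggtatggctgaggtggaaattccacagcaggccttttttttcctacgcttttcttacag
Ctsd (chr7:142387828-142388077, minus strand): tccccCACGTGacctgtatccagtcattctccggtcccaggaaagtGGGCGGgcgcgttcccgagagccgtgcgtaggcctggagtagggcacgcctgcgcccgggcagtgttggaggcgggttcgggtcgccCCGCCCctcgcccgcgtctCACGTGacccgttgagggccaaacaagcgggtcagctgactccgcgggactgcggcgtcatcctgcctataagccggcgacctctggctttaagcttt
Cst3 (chr2:148875513-148875762, minus strand): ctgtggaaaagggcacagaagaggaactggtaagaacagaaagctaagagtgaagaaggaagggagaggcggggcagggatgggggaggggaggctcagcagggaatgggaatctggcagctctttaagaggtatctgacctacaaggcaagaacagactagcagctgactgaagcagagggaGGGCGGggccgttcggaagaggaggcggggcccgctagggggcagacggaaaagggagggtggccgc

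Motifs were searched on both strands of these windows, namely the E-box, the GC box and TATAAA. The E-box was found before a start site of Ctsa, Ctsd and Ctsl, and it occurred in 6.02% of the 32851 mouse promoter windows of the same length. Its first base lay 236 bases before the matched start site in Ctsl and 12 bases before the second start site of Ctsa. Both of these start sites are internal, so these matches lie inside the annotated genes (Ctsl at chr13:64361890-64370772, Ctsa at chr2:164832872-164841032). In Ctsd the E-box lay 245 and 98 bases before the start site. A GC box, found in 32.7% of all windows, was present in Ctsc, Ctsd, Ctss, Ctsz and Cst3. That of Ctsc, 16 bases before the matched start site, lies inside the annotated gene (chr7:88278024-88315861). TATAAA, found in 12.4% of all windows, was matched only in Ctss among the 8 genes. This match was on the minus strand, 233 bases before the start site. In Ctsz a pair of GC boxes overlapped by 1 base, and no other matches overlapped. The Ctsk window held none of these letters and no CG step, against a median of 6 CG steps over all windows, and its GC content was 43.2% against a median of 52.4%. The Ctsd window stood at the other end with 27 CG steps and 67.2% GC. A match is a description of the sequence, and no binding was measured.

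Each array gave a mean fluorescence intensity and a detection p-value for 25697 probes, of which 10545 to 11758 were detected at p under 0.05. Values are given as signal, in fluorescence units after background correction and quantile normalisation. A signal reflects the probe as well as the transcript, so signals were compared between arrays for 1 probe and never between genes. Sums of marker signals, given below, weigh bright probes most. The arrays were hybridised on 2 chips. Chip 1 held all unused media arrays and replicate 1 of both treatments, and chip 2 the other 3 arrays, whose undetected probes had a lower median intensity (43.9 to 44.9) than those of chip 1 (83.1 to 86.0). No 2 arrays held identical values. Of 11 fibroblast markers with a probe, 10 were detected on all 8 arrays, and their summed signal was 36988 to 45058 in unused media, 50927 to 62866 in cardiomyocyte media and 41662 to 51558 in media supernatant. Of 11 cardiomyocyte markers 5 were detected on no array, namely Nppb, Actc1, Tnni3, Pln and Ryr2, while Myl4 was detected on all 8 (signal 107 to 248), Nkx2-5 on 7, Nppa on 3, Myh6 and Myl7 on 2 each and Gata4 on 1. The summed signal was 242 to 419, 259 to 346 and 222 to 224 in the same order of groups. Of 10 macrophage markers, a cell rich in cathepsins, 6 were detected on no array (Adgre1, Lyz2, Tyrobp, Laptm5, Fcer1g and C1qa), while Cd14 was detected on all 8 (signal 54.7 to 128), Aif1 on 7, Itgam on 3 and Ptprc on 1, with summed signals of 216 to 222, 140 to 251 and 208 to 226. The part of these differences in the results below was not tested. In bulk RNA, fewer cells of a type and less RNA per cell cannot be told apart.

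Among the 8 measured genes, Ctsk rose 2.61-fold in fibroblasts given cardiomyocyte media, and in media supernatant it was 1.91-fold lower than in cardiomyocyte media. Ctsl had another order, with its highest signals in media supernatant, where it was 1.71-fold above unused media. Cst3 and Ctsb had higher mean signals after both treatments but passed the test in none, and the signals of Ctsz, Ctsd, Ctss and Ctsa overlapped between unused media and either treatment. Thus 1 of 8 genes was called in each of the 3 comparisons by limma's test (adjusted p under 0.05 over all 8882 genes tested), where the share of all genes called was 8.43% between cardiomyocyte media and unused media, 2.18% between media supernatant and unused media and 4.89% between media supernatant and cardiomyocyte media. With so few genes, 1 call in 8 is not set apart from these shares. The comparisons share arrays, the unused media arrays serving both treatments and each treatment appearing again in the direct comparison, so a high or low array enters more than 1 of them.

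**Figure D1:**
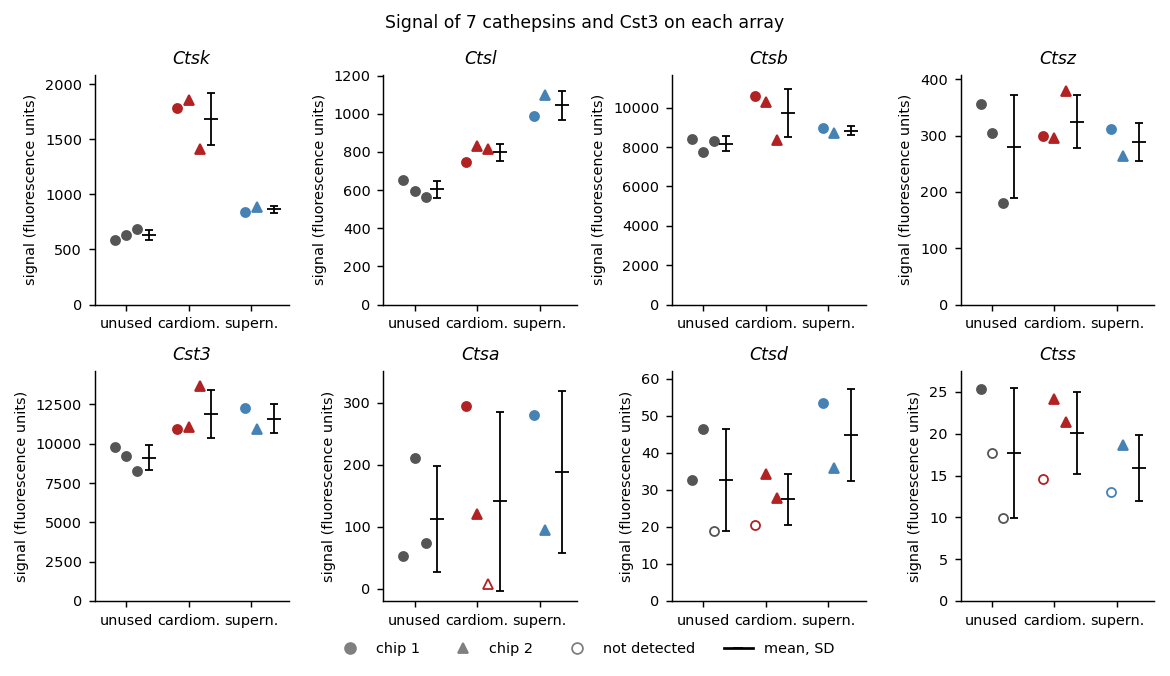
Signal in fluorescence units (vertical axes, linear, from 0 or below) on each of 8 arrays for 7 cathepsins and Cst3, by media group, with circles for chip 1, triangles for chip 2, open symbols for arrays on which the probe was not detected and bars for mean and SD. The 3 cardiomyocyte media arrays of Ctsk sit between 1411 and 1857, above all other arrays, and Ctsl is highest on the 2 supernatant arrays, at 990 and 1098.

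Ctsk encodes cathepsin K, a cysteine protease that cleaves collagen within its triple helix and is best known from bone-resorbing osteoclasts. Its signal in unused media was 588, 628 and 682 in replicates 1 to 3. In cardiomyocyte media it was 1781, 1857 and 1411, and in media supernatant 843 and 888. The 3 groups did not overlap, with unused media lowest and cardiomyocyte media highest. The mean was 633 ± 47.1 (SD, n = 3) in unused media, 1683 ± 239 (SD, n = 3) in cardiomyocyte media and 866 ± 31.7 (SD, n = 2) in media supernatant. By limma's test the log2 fold change of cardiomyocyte media over unused media was 1.38 (SE 0.17, adjusted p = 4.7e-04), rank 101 of 8882 genes by p. The log2 fold change of media supernatant over cardiomyocyte media was -0.94 (SE 0.19, limma adjusted p = 0.0147). Between media supernatant and unused media it was 0.45 (95% confidence interval 0.03 to 0.86, limma adjusted p = 0.386), which did not pass, so in the order of the 3 levels the lower pair was not separated.

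On both chips Ctsk was higher in cardiomyocyte media than in media supernatant, and only chip 1 held unused media. On chip 1 the single cardiomyocyte media array read 1781 against 588 to 682 in unused media and 843 in the supernatant. On chip 2 the pair of cardiomyocyte media arrays read 1857 and 1411 against 888 in the supernatant. With chip as a block the log2 fold change over unused media was 1.41 (limma adjusted p = 0.00181), and with the arrays of chip 1 alone it was 1.47 (limma adjusted p = 0.0273). The difference between media supernatant and cardiomyocyte media kept its size but lost its call within either chip (log2 fold change -1.06 and limma adjusted p = 0.241 on chip 1, -0.85 and 0.151 on chip 2) and without cardiomyocyte media replicate 2, supernatant replicate 1 or supernatant replicate 2 (highest limma adjusted p = 0.157). It was also lost with arrays scaled to a common median (log2 fold change -0.90, limma adjusted p = 0.166).

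The 3 genes whose profile over the 8 arrays was nearest to that of Ctsk were Tril, Angpt2 and Vegfa, by the mean absolute difference of log2 values after each gene was centred on its own mean. The differences were 0.12 for each of the 3. Tril, a modulator of Toll-like receptor signalling, read 169 to 184 in unused media, 442 to 598 in cardiomyocyte media, and 215 and 255 in media supernatant. Angpt2, a ligand of the endothelial receptor Tie2, read 124 to 180, 392 to 610, and 215 and 231 in the same order. Vegfa, the vascular growth factor, read 384 to 541, 1009 to 1244, and 577 and 653. All 3 were picked for this likeness out of 8882 genes, so their resemblance to Ctsk is a description.

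Ctsl encodes cathepsin L, a cysteine endopeptidase found in the lysosomes of most cells and secreted by stimulated 3T3 cells as its precursor. Its signal was 651, 594 and 564 in unused media. It was 747, 831 and 817 in cardiomyocyte media, and 990 and 1098 in media supernatant. Again no group overlapped another, but the highest level was in media supernatant. Means were 603 ± 44.3 (SD, n = 3), 798.2 ± 45.1 (SD, n = 3) and 1044 ± 76.3 (SD, n = 2) in that order. The log2 fold change of media supernatant over unused media was 0.78 (SE 0.18, limma adjusted p = 0.0478). Neighbours in the order were not separated, since cardiomyocyte media over unused media gave 0.40 (95% confidence interval 0.05 to 0.74, limma adjusted p = 0.150) and media supernatant over cardiomyocyte media gave 0.38 (95% confidence interval -0.01 to 0.77, limma adjusted p = 0.338).

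The call of Ctsl rested close to the threshold. With chip as a block the log2 fold change was 0.70 (limma adjusted p = 0.0787), and on chip 1 alone 0.70 (limma adjusted p = 0.499), where the supernatant array read 990 against 564 to 651. It was lost without any 1 array except cardiomyocyte media replicate 1, the log2 fold change then lying between 0.70 and 0.85 and the limma adjusted p reaching 0.468. It was likewise lost with arrays scaled to a common median (log2 fold change 1.11, limma adjusted p = 0.126), with the authors' normalised values (0.77 and 0.0741) and in a fit of the compared groups alone (0.78 and 0.0771). When each probe was tested in place of each gene, Ctsl was not called (limma adjusted p = 0.0681) and Ctsk was (limma adjusted p = 8.5e-04 over unused media and 0.0220 between the treatments), while the share of all 12013 probes called was 6.45%, 1.56% and 3.71% in the 3 comparisons.

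**Figure D2:**
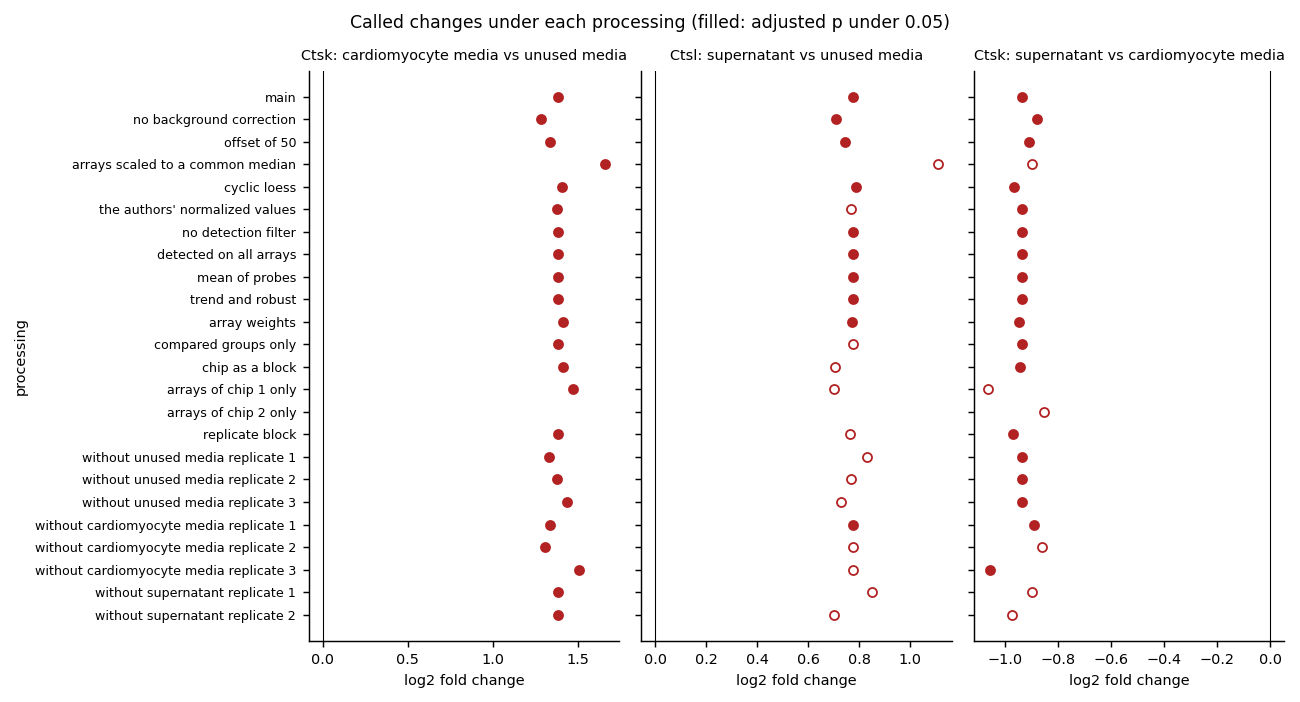
Log2 fold change (horizontal axes, a separate scale in each panel) of the 3 called differences under each processing and with each array left out, filled where limma's adjusted p was under 0.05. Ctsk in cardiomyocyte media over unused media stays filled between 1.28 and 1.66, while Ctsl in media supernatant over unused media keeps its sign and loses the call in 13 of 22 alternatives, and chip 2 alone holds only the comparison between both treatments.

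Cst3 encodes cystatin C, the inhibitor of the group. It read 9816, 9250 and 8274 in unused media. In cardiomyocyte media it read 10953, 11085 and 13664.5, and in media supernatant 12251 and 10953. Every treated array lay above every unused media array, and both treated groups overlapped. The means were 9113 ± 780.2 (SD, n = 3), 11901 ± 1529 (SD, n = 3) and 11602 ± 918 (SD, n = 2). The log2 fold changes over unused media were 0.38 (95% confidence interval 0.01 to 0.75, limma adjusted p = 0.190) in cardiomyocyte media and 0.35 (95% confidence interval -0.07 to 0.76, limma adjusted p = 0.508) in media supernatant. Between the treatments it was -0.03 (95% confidence interval -0.45 to 0.38, limma adjusted p = 0.975).

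Ctsb encodes cathepsin B, a cysteine protease that also trims peptides from their carboxyl end. Its signal was 8432, 7740 and 8321 in unused media. It was 10583, 10307 and 8352 in cardiomyocyte media, and 8985 and 8689 in media supernatant. Cardiomyocyte media replicate 3 fell within the range of unused media, and the supernatant arrays lay just above that range. The log2 fold changes were 0.25 (95% confidence interval -0.11 to 0.61, limma adjusted p = 0.370) in cardiomyocyte media and 0.11 (95% confidence interval -0.29 to 0.52, limma adjusted p = 0.850) in media supernatant over unused media. Media supernatant over cardiomyocyte media gave -0.13 (95% confidence interval -0.54 to 0.27, limma adjusted p = 0.848).

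Ctsz encodes cathepsin Z (also called X), a carboxypeptidase, and was read by 2 probes. The probe that stood for the gene, the one with the higher mean, read 357, 305 and 180 in unused media, 299, 296 and 379 in cardiomyocyte media, and 312 and 264 in media supernatant. The other probe read 254, 196 and 199 in unused media, 253, 337 and 335 in cardiomyocyte media, and 238 and 233 in media supernatant. The probes differed in which unused media and cardiomyocyte media arrays were high, and neither separated the treatments from unused media. For cardiomyocyte media over unused media the first gave a log2 fold change of 0.24 (95% confidence interval -0.28 to 0.76, limma adjusted p = 0.559) and the second 0.48 (95% confidence interval 0.07 to 0.89, limma adjusted p = 0.153 over all probes).

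Ctsa encodes cathepsin A, the carboxypeptidase that also holds lysosomal neuraminidase and beta-galactosidase in a stable complex. It had 4 probes, and the brightest read 52.8, 210 and 74.2 in unused media. The same probe read 294, 121 and 7.32 in cardiomyocyte media, and 280 and 95.3 in media supernatant. It was undetected only in cardiomyocyte media replicate 3, with a detection p of 0.509. The arrays of each group were thus scattered widely, and the log2 fold change of cardiomyocyte media over unused media was -0.17 with a 95% confidence interval of -1.90 to 1.56 (limma adjusted p = 0.915). Without cardiomyocyte media replicate 3 it was 0.88 (limma adjusted p = 0.433). The other 3 probes read between 5.996 and 50.02. Of these, 2 did not follow the brightest, with signals of 35.2 and 50.02, the highest of their treatment, in the replicate where it was undetected. The third read 35.8, 8.65 and 5.996 in cardiomyocyte media and 22.0 and 8.11 in media supernatant, the same order as the brightest in both treatments, but it was detected on only 2 of the 8 arrays. For cardiomyocyte media over unused media, the other 3 probes gave log2 fold changes of 0.04, 0.51 and 0.006, from the brighter to the dimmer. The value of 0.51 had a 95% confidence interval of 0.04 to 0.97 (limma adjusted p = 0.179 over all probes). None of the 4 probes was called in any comparison.

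**Figure D3:**
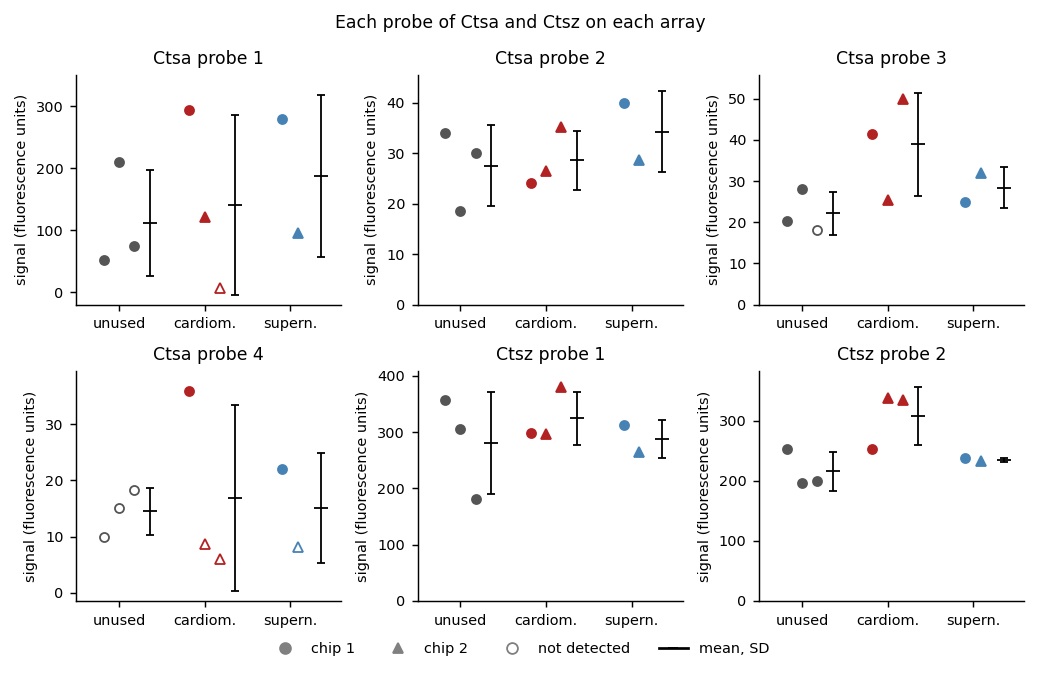
Signal in fluorescence units (vertical axes, linear, a separate scale in each panel) of each probe of Ctsa and Ctsz on each array, with circles for chip 1, triangles for chip 2, open symbols where the probe was not detected and bars for mean and SD. Probe 1 of Ctsa ranges from 7.32 to 294 within cardiomyocyte media, while its other probes stay at or under 50.02, and of these only probe 4, detected on 2 arrays, shares its order within both treatments.

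Ctsd and Ctss gave dim signals. Ctsd encodes cathepsin D, the main aspartic protease of the lysosome, and read 32.6, 46.4 and 18.8 in unused media, 20.5, 34.3 and 27.8 in cardiomyocyte media, and 53.6 and 36.0 in media supernatant. It was undetected on 1 unused media and 1 cardiomyocyte media array. The supernatant arrays lay above all cardiomyocyte media arrays, with a log2 fold change of 0.48 (95% confidence interval -0.10 to 1.06, limma adjusted p = 0.458). Ctss encodes cathepsin S, which in antigen-presenting cells cleaves the invariant chain of MHC class II, and read 9.90 to 25.4 over all 8 arrays, 4 of which detected it. Its log2 fold changes over unused media were 0.12 in cardiomyocyte media and -0.06 in media supernatant (limma adjusted p = 0.761 and 0.947).

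The remaining pair of genes was not measured above background. Ctsc encodes cathepsin C, a dipeptidyl peptidase that activates the serine proteases of immune cells, and its 3 probes read 4.49 to 12.4. Ctsh encodes cathepsin H, an aminopeptidase, and its probe read 5.15 to 9.72. Neither was detected on any of the 8 arrays, which gives no level and no fold change, and does not show that the transcripts were absent.

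**Figure D4:**
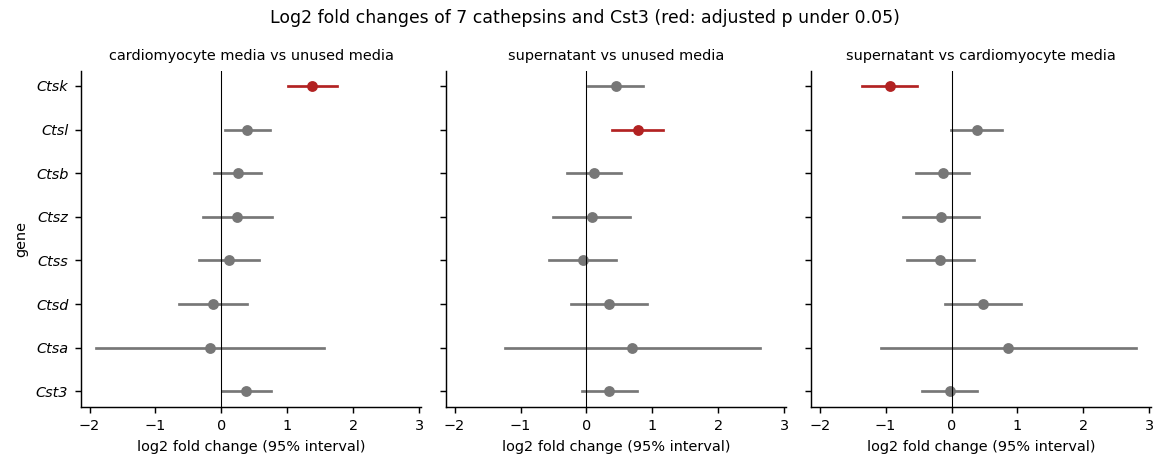
Log2 fold change (horizontal axes) with 95% confidence interval of 7 cathepsins and Cst3 in the 3 comparisons, red where limma's adjusted p over 8882 genes was under 0.05. Ctsk is red at 1.38 and at -0.94, Ctsl is red at 0.78 in media supernatant over unused media, and the interval of Ctsa spans 0 widely in all panels.

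Over the 8 tested genes the median log2 fold change was 0.25 in cardiomyocyte media and 0.35 in media supernatant over unused media, against medians of -0.01 and -0.003 over all 8882 genes. It was -0.08 between media supernatant and cardiomyocyte media, against 0.02 over all genes. The arrays of cardiomyocyte media and unused media did not overlap for 3 of the 8 genes (Ctsk, Ctsl and Cst3), as was so for 28.6% of all genes. Media supernatant and unused media did not overlap for 4 of the 8 (these 3 and Ctsb), against 31.3% of all genes. The treatments did not overlap for 3 of the 8 (Ctsk, Ctsl and Ctsd), against 32.4% of all genes. Of the 8 log2 fold changes 6 were above 0 in cardiomyocyte media and 7 in media supernatant, and with an unadjusted p under 0.05 there were 3, 2 and 1 of the 8 genes in the 3 comparisons, against 25.1%, 11.9% and 15.2% of all genes.

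The other genes of the lysosome were taken from 7 lists, 114 genes of which 81 were tested. In cardiomyocyte media over unused media 2 of the 81 rose and 2 fell, 4.94% against 8.43% of all genes. In media supernatant none of the 81 was called by limma against unused media and none against cardiomyocyte media, with 6 of 81 at an unadjusted p under 0.05 in each, against 11.9% and 15.2% of all genes. In cardiomyocyte media over unused media 15 of the 81 had an unadjusted p under 0.05, against 25.1% of all genes. The median log2 fold changes of the lists ran from -0.11 to 0.21 in cardiomyocyte media and from -0.11 to 0.32 in media supernatant over unused media, both highest for the lysosomal membrane proteins (14 tested).

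Lgmn encodes legumain, the asparaginyl endopeptidase that processes cathepsin precursors, and was the 1 gene of 6 tested among the other cathepsins and legumain that was called. It read 712, 707 and 604 in unused media, 1266, 866 and 1461 in cardiomyocyte media, and 941 and 774 in media supernatant. Its log2 fold change in cardiomyocyte media was 0.78 (SE 0.21, limma adjusted p = 0.0435), and 0.93 (limma adjusted p = 0.0530) with chip as a block. This call was lost without any 1 array other than cardiomyocyte media replicate 2 (highest limma adjusted p = 0.157), and also with the authors' normalised values, with no detection filter, in a fit of the compared groups alone and on chip 1 alone (limma adjusted p = 0.0698, 0.0679, 0.0571 and 0.152). Its value in media supernatant was 0.34 (limma adjusted p = 0.619). Of the other cystatins and cathepsin inhibitors, which include the cytosolic inhibitor Cstb, none of 6 was called in any comparison, with 1, 1 and 0 at an unadjusted p under 0.05. Cstb itself gave log2 fold changes of 0.12 and 0.07 over unused media (limma adjusted p = 0.667 and 0.921). The 1 gene at an unadjusted p under 0.05 was Cst11 for both treatments over unused media, with 0.49 and 0.47 (limma adjusted p = 0.112 and 0.366). It was detected on no unused media array.

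Hyal1, a lysosomal hyaluronidase, was the 1 of 27 hydrolases and activators that was called. Its signal was 63.3, 52.1 and 35.6 in unused media, 10.8, 24.1 and 18.3 in cardiomyocyte media, where 2 of 3 arrays detected it, and 40.4 and 33.5 in media supernatant. In cardiomyocyte media it fell by 0.97 on the log2 scale (SE 0.21, limma adjusted p = 0.0172), and by 1.10 (limma adjusted p = 0.0269) with chip as a block. This call was lost when replicate 1 or 2 of unused media or replicate 3 of cardiomyocyte media was left out (highest limma adjusted p = 0.0766), with arrays scaled to a common median (log2 fold change -0.83, limma adjusted p = 0.0883) and on chip 1 alone (-1.29 and 0.0892).

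Cln3, a membrane protein of the lysosome, was the 1 of 14 membrane proteins called. It read 183, 146 and 153 in unused media, 269, 307 and 291 in cardiomyocyte media, and 193 and 220 in media supernatant. The log2 fold change in cardiomyocyte media was 0.79 (SE 0.16, limma adjusted p = 0.0131), and 0.69 (limma adjusted p = 0.0574) with chip as a block. Leaving out replicate 2 of either group also ended the call (highest limma adjusted p = 0.0613), as did chip 1 alone (limma adjusted p = 0.283).

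M6pr encodes the cation-dependent receptor for mannose 6-phosphate, which carries cathepsin precursors from the Golgi, and was the 1 of 8 sorting genes called. Its signal was 1641, 1172 and 1242 in unused media, 833, 938 and 711 in cardiomyocyte media, and 1018 and 1130 in media supernatant. It fell by 0.69 on the log2 scale in cardiomyocyte media (SE 0.19, limma adjusted p = 0.0458), but with arrays scaled to a common median the log2 fold change was -0.42 (limma adjusted p = 0.431), and with chip as a block it was -0.72 (limma adjusted p = 0.0956). The call was lost without any 1 array other than cardiomyocyte media replicate 1 (highest limma adjusted p = 0.161), and also with the authors' normalised values, with no detection filter, with the mean of probes, in a fit of the compared groups alone, on chip 1 alone and with the replicate block (limma adjusted p = 0.0654, 0.0533, 0.0567, 0.0673, 0.355 and 0.0555). None of 15 subunits of the vacuolar proton pump and none of 5 lysosomal transcription regulators was called in any comparison by limma. At an unadjusted p under 0.05 there were 2 pump subunits and 1 regulator in cardiomyocyte media over unused media, and 0 of either in both other comparisons.

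**Figure D5:**
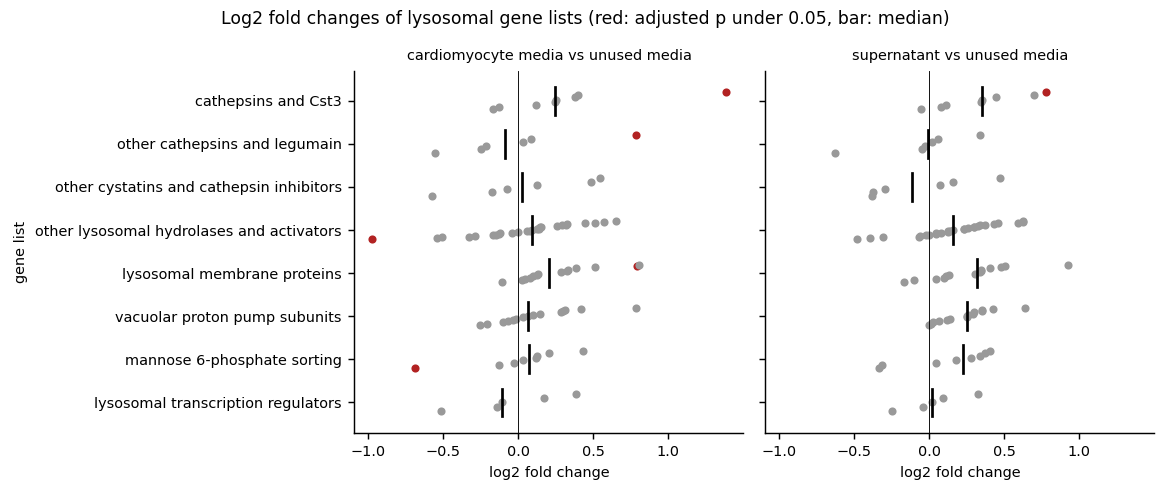
Log2 fold change (horizontal axes) of each tested gene in the cathepsin and Cst3 set and in 7 other lysosomal lists, for both treatments over unused media, red where limma's adjusted p was under 0.05, with a bar at each list's median. The medians of the set are 0.25 and 0.35, and of the 81 other genes 4 are red in cardiomyocyte media and 0 in media supernatant.

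The summed signal of the fibroblast markers was higher in cardiomyocyte media than in unused media without overlap, while the sums of unused media and media supernatant overlapped. A large part of that rise came from Lum, which read 3336 to 5311 in unused media and 11003 to 12847 in cardiomyocyte media. The separation of the sums is therefore not a result about the markers as a group. Of the 10 markers tested 2 were called in cardiomyocyte media over unused media, both higher, against 8.43% of all genes. The list median was 0.18. In media supernatant over unused media 1 was called higher and 1 lower, against 2.18% of all genes. Between the treatments 2 were called lower, against 4.89% of all genes. Not called were Thy1 (log2 fold change -0.62, limma adjusted p = 0.0737), S100a4 (-0.43 and 0.238) and Pdgfrb (-0.39 and 0.338), all below 0. Also not called, but above 0, were Col1a1 (0.78 and 0.176), Vim (0.54 and 0.161), Col1a2 (0.30 and 0.521), Pdgfra (0.06 and 0.843) and Dcn (0.03 and 0.929). Lum, a collagen-binding proteoglycan, rose in cardiomyocyte media (log2 fold change 1.57, limma adjusted p = 5.4e-04) and was lower in media supernatant than in cardiomyocyte media (log2 fold change -0.99, limma adjusted p = 0.0245). Col3a1, a fibrillar collagen, rose in both treatments over unused media (log2 fold changes 1.19 and 1.04, limma adjusted p = 9.5e-04 and 0.0136), a call that was lost for both when the mean of its probes was used (limma adjusted p = 0.148 and 0.293). S100a4, a calcium-binding protein, was lower in media supernatant, with log2 fold changes of -1.98 against unused media and -1.55 against cardiomyocyte media (limma adjusted p = 0.00424 and 0.00325). With either supernatant array left out, the calls against unused media of S100a4 and Col3a1 and that of Lum between the treatments were lost. Over 15 processings and 8 left-out arrays, the Lum call between the treatments was lost in 9, with log2 fold changes of -1.05 to -0.88. Against unused media, over 14 processings and 8 left-out arrays, the calls of S100a4 and Col3a1 were lost in 3 and 5. None of the 5 cardiomyocyte markers and none of the 3 macrophage markers that could be tested was called in any comparison by limma. At an unadjusted p under 0.05 there were 1, 0 and 2 cardiomyocyte markers and 2, 0 and 1 macrophage markers in the 3 comparisons. For the 10 fibroblast markers these counts were 5, 4 and 3. The shares of all genes were 25.1%, 11.9% and 15.2%.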

How the data were processed

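Labelled cRNA made from total RNA of NIH 3T3 fibroblasts was hybridised to 8 Illumina MouseRef-8 arrays. The deposited values are mean bead intensities per probe, not normalised, with the deposited detection p-values, bead standard errors and numbers of beads (25 or more for each of the 16 probes). The authors worked in BeadStudio (3.3 in the submitters' processing notes), and their cubic spline normalised values were used only as an alternative. Their own comparisons were not used.

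Intensities were background corrected by normexp with negative controls inferred from the detection p-values, 16 was added, and values were quantile normalised and log2 transformed in limma 3.58.1 (R 4.3.3). Printed signals are without the 16, and log2 fold changes, on the log2(signal + 16) scale, understate the change of dim probes. Probes were kept when detected (p under 0.05) on at least 2 arrays, which left 12013 probes. Of several probes the brightest on average represented a gene, which gave 8882 genes. Of 25697 probes 23978 had 1 gene, 1719 none and 0 several in the platform annotation, and 15 names were updated through RefSeq gene IDs or synonyms.

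Groups came from the labels. All 8 arrays were fitted by group with lmFit and eBayes, with Benjamini-Hochberg adjustment over all genes and calls at an adjusted p under 0.05. Promoters were taken from RefSeq (GRCm38.p6). The scripts were tested on simulated data. Named by rule were the 10 genes, the called genes of each other list with the smallest p (at most 3) and the 3 genes nearest to Ctsk. Outside this rule, Cstb, Cst11, the other tested fibroblast markers, and the cardiomyocyte and macrophage markers with a probe were also named. Genes, lists and tests were chosen with earlier results of these data known. Array number limits the precision.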

Additional observations from a re-analysis of the deposited data

How the results depend on the processing

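Cardiomyocyte media over unused media called 1 of the 8 genes, Ctsk, under every alternative (log2 fold change 1.28 to 1.66, limma adjusted p 2.95e-05 to 0.0273). In media supernatant over unused media 0 genes were called with arrays scaled to a common median, 0 with the authors' normalised values, 0 with each probe tested, 0 with the compared groups only, 0 with chip as a block, 0 with chip 1 only and 0 with the replicate block, and 0 to 1 with 1 array left out. Between media supernatant and cardiomyocyte media 0 were called with arrays scaled to a common median, 0 with chip 1 only and 0 with chip 2 only, and 0 to 1 with 1 array left out. Scaling to a common median moved the median log2 fold change of all genes to 0.21 in cardiomyocyte media and 0.26 in media supernatant over unused media. With it the calls among all genes went from 358 higher and 391 lower to 368 and 111, and from 65 and 129 to 53 and 10. Deviations of same-numbered arrays from their group means correlated at -0.18 to -0.09 between unused media and either treatment. Between the treatments they correlated at 0.71 and 0.49, where number and chip coincide. All unused media arrays lay on chip 1 and each treatment was split between chips, so these values cannot tell whether replicate numbers pair the arrays. With the replicate block the log2 fold change of Ctsk was 1.38 (limma adjusted p = 0.00181) and that of Ctsl in media supernatant 0.76 (limma adjusted p = 0.126), and the calls among all genes numbered 729, 97 and 341 in the 3 comparisons, against 749, 194 and 434. Adding the fold and signal thresholds of the methods changed no call among the 8 genes.

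Among the 8 genes signs turned only where there was no call, and the cause was not tested. For cardiomyocyte media over unused media, Ctsa gave 0.0050 with no background correction, 0.0087 with an offset of 50, 0.044 when detection on all arrays was asked for, 0.10 with the mean of probes, 1.17 with chip as a block and 1.47 on chip 1 alone. Ctss gave -0.088 with chip as a block and -0.11 on chip 1 alone. In media supernatant over unused media, Ctsz gave -0.042 with array weights. Between media supernatant and cardiomyocyte media, chip 1 alone gave 0.16 for Cst3, -0.066 for Ctsa and 0.057 for Ctsz. With 1 array left out, values for cardiomyocyte media over unused media ran from -0.98 to 0.88 for Ctsa, -0.35 to 0.069 for Ctsd, -0.061 to 0.28 for Ctss and -0.030 to 0.43 for Ctsz. Those for media supernatant over unused media ran from -0.0084 to 1.40 for Ctsa, -0.23 to 0.10 for Ctss and -0.19 to 0.27 for Ctsz, and those between the treatments from -0.11 to 0.072 for Cst3 and -0.19 to 1.68 for Ctsa. Where 1 supernatant array was left, it was assumed to vary like the other groups. Signals near background limit Ctsd and Ctss.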
